A study of Mus musculus with 8 samples.

Results

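The genes examined here are 7 enzyme genes of cholesterol synthesis: Hmgcs1, Idi1, Fdft1, Sqle, Lss, Cyp51 and Dhcr7. They were chosen by name, and every probe set annotated with 1 of these symbols was taken. This gave 19 probe sets among the 45037 that are not array controls, and 15 of the 19 passed the filter on low values and were tested, at least 1 for each gene. The values come from whole testes of 27-day-old, untreated mice, measured on 1 Affymetrix array per mouse. The 4 control mice are titled wild type but carry the genotype entry Brwd1+/-, so they may be carriers of 1 mutant copy. The 4 mutant mice are entered as Brwd1-/-, in a design that asks which transcripts differ in the testis when this bromodomain gene is mutated. The labels name neither the strain nor the kind of mutation.

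Cells build cholesterol from acetyl-CoA: the mevalonate steps make isoprene units, squalene is assembled from them, and the squalene chain is closed into a ring that is then trimmed to cholesterol. In most tissues the enzymes are controlled together by sterol-sensing transcription factors (SREBPs), which turn the genes on when membrane sterol is low. In the testis the pathway serves Leydig cells, which make steroid hormones from cholesterol, and Sertoli and germ cells. Germ cells are also known for strong expression of Cyp51, whose product belongs to the meiosis-activating sterols. In whole testis RNA, fewer cells of a type and less RNA per cell cannot be told apart.

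No gene of the 7 passed the test between genotypes. Of the 15 probe sets tested, 0 were called at an adjusted p of 0.05 (limma, Benjamini-Hochberg over all probe sets), without a block, with the replicate number as a block, or with a block for replicates 1 and 2 against replicates 3 and 4. Over all 27022 probe sets tested, 0.115% were called without a block, all of them lower in mutants. The replicate block gave 2.39% (2.18% lower) and the block for the sets of replicates 1.79% (1.48% lower). Within replicates 3 and 4 alone the share was 0.0851%, and within replicates 1 and 2 alone it was 0%. At an unadjusted p under 0.05, 2 of the 15 passed without a block (13.3%, against 7.43% of all probe sets). With either block 3 of the 15 passed, where 14.3% (replicate block) and 14.6% (block for the sets) of all probe sets did. These were the main Cyp51 probe set and 1 Fdft1 probe set, joined by another Fdft1 probe set in the blocked fits. The log2 difference, mutant minus wild type, was positive on 9 and negative on 6 of the 15, with a median of 0.08 beside 0.07 over all probe sets. Hmgcs1 and Lss made up 7 of the 9 positive ones. With 1 probe set per gene, the brightest, 3 genes were positive and 4 negative, and the median turned to -0.016. The 95% intervals without a block ran from -0.77 at the lowest to 0.82 at the highest, so none included a difference of 1 log2 unit in either direction.

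**Figure D1:**
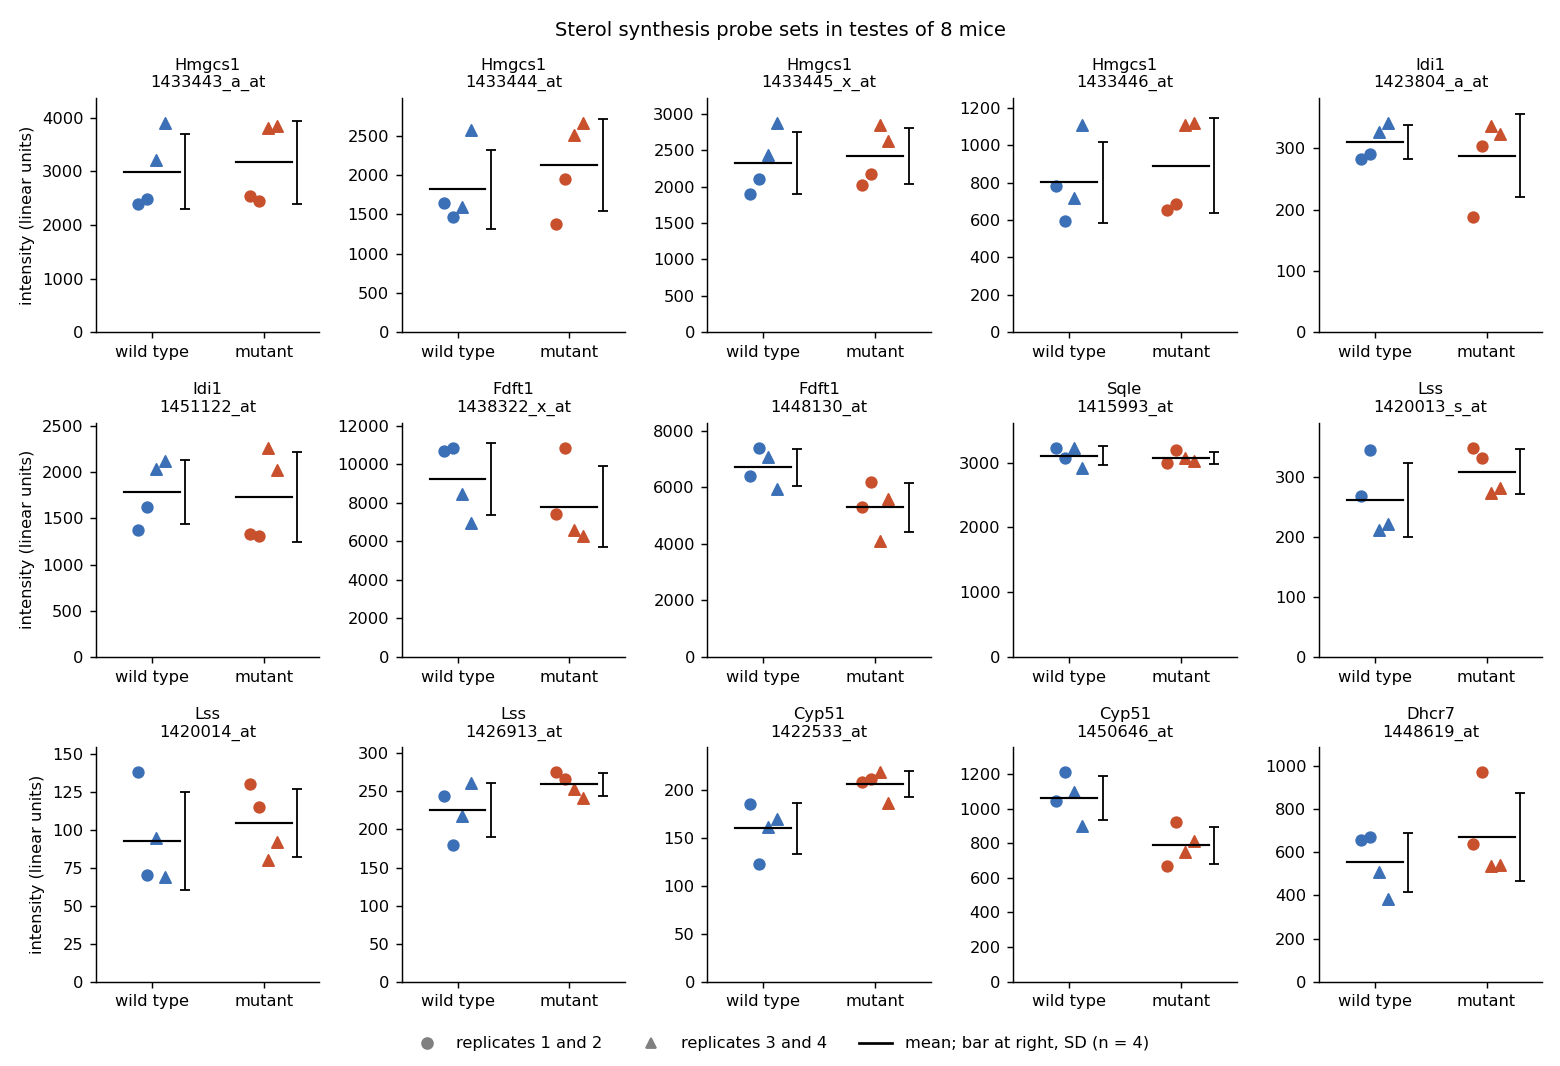
Intensity (linear array units, each axis starting at 0) of the 15 tested probe sets in the 4 wild-type and 4 mutant mice. Circles are replicates 1 and 2, triangles replicates 3 and 4, lines are means and bars SDs (n = 4). Genotypes overlap in every panel but Cyp51 1422533_at, while the mean of the triangles is above that of the circles in both genotypes for Hmgcs1 and Idi1, without overlap on 1433443_a_at, 1433445_x_at and both Idi1 panels.

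The arrays fall into 2 sets that the labels do not name. The 6 measured epididymis markers, such as Lcn5, summed to between 212 and 624 in replicates 1 and 2 of both genotypes and to between 55591 and 64804 in replicates 3 and 4. The 5 measured fat cell markers, such as Adipoq and Fabp4, summed to between 1479 and 9938 in the first set and between 28337 and 38377 in the second. Testis markers were present on every array: the 7 spermatocyte genes summed to between 15131 and 22260, and the 4 measured Leydig cell genes to between 12478 and 22347. The 8 spermatid markers summed to between 72241 and 125002 in wild type and between 4277 and 27042 in mutants, where mutant replicate 1 was lowest. Array medians lay between 90.7 and 124.

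Hmgcs1 encodes the cytosolic HMG-CoA synthase, an early enzyme of the mevalonate route. Its brightest probe set, 1433443_a_at, read 2389, 2476, 3209 and 3897 in wild-type replicates 1 to 4 and 2547, 2454, 3806 and 3847 in mutant replicates 1 to 4. The genotypes overlapped almost completely, and the high values were those of replicates 3 and 4. The means were 2993 ± 706 and 3163 ± 767 (SD, n = 4 each), a log2 difference of 0.08 (95% interval -0.42 to 0.57; limma, adjusted p = 0.999). With the block for the sets of replicates the interval narrowed to -0.12 to 0.27 (adjusted p = 0.729). The 3 other tested probe sets gave log2 differences of 0.22, 0.06 and 0.14. On 1433444_at, wild-type replicate 4 stood alone in its group at 2570.2, while the next wild-type value was 1646. The fifth probe set, 1441536_at, lay below the filter, at 29.4 to 81.0.

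Idi1 encodes the isomerase that converts isopentenyl diphosphate to its reactive isomer. On 1451122_at wild-type replicates 1 to 4 read 1378, 1626, 2029.9 and 2117, and mutant replicates 1 to 4 read 1328, 1313, 2264 and 2027. Again the genotypes overlapped and replicates 3 and 4 were high in both. The means were 1788 ± 347 and 1733 ± 486 (SD, n = 4 each), a log2 difference of -0.07 (95% interval -0.58 to 0.44; limma, adjusted p = 0.999). The dimmer probe set 1423804_a_at read 282 to 341 in wild type and 188 to 336 in mutants, its lowest value being that of mutant replicate 1. Its log2 difference was -0.13, and 0.05 without that mouse.

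RefSeq windows (GRCm38.p6) were matched for 5 of the 7 genes, Hmgcs1, Idi1, Lss, Cyp51 and Dhcr7, as 7 windows in all. Those of Hmgcs1 and Idi1, whose values were high on the same 4 arrays, and of Cyp51, whose probe sets differed in direction, are shown as the 250 bases before the annotated start, 5′ to 3′ on the gene's strand. Capitals mark matches on either strand to TCACNCCAC (a sterol regulatory element pattern), TGACGT (the core of the cAMP response element, contained in the full site TGACGTCA), CCAAT (the NF-Y box) and GGGCGG (the GC box).
Hmgcs1 (chr13:119690101-119690350, plus strand): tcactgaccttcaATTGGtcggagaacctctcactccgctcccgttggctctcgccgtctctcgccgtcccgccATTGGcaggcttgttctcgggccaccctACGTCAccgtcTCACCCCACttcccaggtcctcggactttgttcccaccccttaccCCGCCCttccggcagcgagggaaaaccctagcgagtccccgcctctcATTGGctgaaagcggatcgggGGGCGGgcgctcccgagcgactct
Idi1 (chr13:8885356-8885605, plus strand): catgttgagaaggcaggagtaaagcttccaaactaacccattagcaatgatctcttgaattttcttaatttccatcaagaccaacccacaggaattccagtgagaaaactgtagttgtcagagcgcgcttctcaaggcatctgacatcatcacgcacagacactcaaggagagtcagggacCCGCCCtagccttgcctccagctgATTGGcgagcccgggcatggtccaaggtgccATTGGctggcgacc
Cyp51 (chr5:4104698-4104947, minus strand): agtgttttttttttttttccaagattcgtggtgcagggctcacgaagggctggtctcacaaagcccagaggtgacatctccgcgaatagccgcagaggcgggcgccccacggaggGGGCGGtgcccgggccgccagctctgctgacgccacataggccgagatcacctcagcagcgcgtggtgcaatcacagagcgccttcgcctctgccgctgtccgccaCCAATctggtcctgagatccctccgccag

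Hmgcs1 was the single gene of the 5 with a TCACNCCAC match, 137 to 129 bases before the start, a pattern held by 1.05% of the 32851 windows of this length in the table. It also had an ACGTCA, the reverse complement of TGACGT, 148 to 143 bases before the start, in a window class of 6.47%. The full site TGACGTCA was in 0 of the 7 windows and in 1.55% of all. The NF-Y box was in 5 of the 7 windows (33.8% of all) and the GC box in 6 of the 7 (32.7% of all), so that each of the 5 genes had at least 1 of both. These are matches of letters and show no binding.

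Fdft1 encodes squalene synthase, which joins farnesyl diphosphate units and commits the pathway to sterols. On 1448130_at wild-type replicates 1 to 4 read 6411, 7398, 7067 and 5941, and mutant replicates 1 to 4 read 5285, 6194, 4101 and 5568. The mutants were lower on average, with mutant replicate 2 above wild-type replicate 4. The means were 6704 ± 653 and 5287 ± 877 (SD, n = 4 each), a log2 difference of -0.35 (95% interval -0.68 to -0.03; limma, adjusted p = 0.598, and 0.201 and 0.186 with the replicate block and the block for the sets). The brighter 1438322_x_at read 6959 to 10850 in wild type and 6287 to 10850 in mutants, with a log2 difference of -0.26 (adjusted p = 0.986). The suffix x_at marks probes that can match other transcripts. In replicates 1 and 2 alone the log2 difference of 1438322_x_at was -0.26, and in the other set -0.25, while that of 1448130_at was -0.27 and -0.44. The remaining Fdft1 probe sets, 1438918_at and 1438919_x_at, read between 4.16 and 47.0 and were below the filter.

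Sqle encodes squalene epoxidase, a rate-limiting oxygenase of the sterol branch, and was the steadiest of the 7. Its single probe set read 3233, 3072, 3232 and 2912 in wild-type replicates 1 to 4 and 2992, 3205, 3075 and 3034 in mutant replicates 1 to 4. All 8 mice lay within this narrow band, in both genotypes and both sets of replicates. The log2 difference was -0.02 (95% interval -0.24 to 0.21; limma, adjusted p = 0.999), the narrowest interval among the genes.

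Lss encodes lanosterol synthase, which closes squalene epoxide into the first sterol ring. On 1420013_s_at wild-type replicates 1 to 4 read 268, 346, 211 and 221, and mutant replicates 1 to 4 read 349, 332, 273 and 282. Wild-type replicate 2 lay among the mutants, so the genotypes overlapped. The means were 262 ± 61.4 and 309 ± 37.3 (SD, n = 4 each), a log2 difference of 0.25 (95% interval -0.18 to 0.67; limma, adjusted p = 0.985). The 2 other probe sets had the same sign, 0.20 on 1426913_at and 0.17 on 1420014_at.

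Cyp51 encodes lanosterol 14-alpha-demethylase, the cytochrome P450 of the pathway, and its probe sets pointed in opposite directions. On 1450646_at, the brightest, wild-type replicates 1 to 4 read 1043, 1211, 1098 and 899, and mutant replicates 1 to 4 read 667, 925, 752 and 811. The mutants were lower save for mutant replicate 2, which exceeded wild-type replicate 4. The means were 1063 ± 129 and 789 ± 108 (SD, n = 4 each), a log2 difference of -0.42 (95% interval -0.77 to -0.08; limma, adjusted p = 0.474, and 0.165 and 0.176 with the replicate block and the block for the sets). It was -0.35 without mutant replicate 1.

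On Cyp51 1422533_at wild-type replicates 1 to 4 read 184.9, 122, 161 and 169.6, and mutant replicates 1 to 4 read 208, 211, 218 and 185.9. Every mutant lay above every wild-type mouse, though the closest mice, at 184.9 and 185.9, were all but level. Of the 15 probe sets this was the 1 without overlap between genotypes, where 6.1% of all probe sets had none (2.26% higher and 3.83% lower in mutants). The log2 difference was 0.35 (95% interval -0.03 to 0.73; limma, adjusted p = 0.742). The remaining probe set, 1422534_at, read 3.82 to 51.6 and was below the filter.

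The ratio of the Cyp51 probe sets was examined after these values were seen. The log2 ratio of 1450646_at to 1422533_at averaged 2.63 ± 0.38 in wild-type mice against 1.85 ± 0.22 in the mutants (SD, n = 4 each), with no overlap between genotypes. The difference of -0.77 had an exact two-sided permutation p of 0.0286, the smallest that 4 against 4 mice can give. Over the 12 ratios between probe sets of 1 gene in this group the adjusted value was 0.343 (Benjamini-Hochberg), and the other 11 had exact permutation p-values of 0.343 to 0.914. A lone ratio at the smallest possible p could not get a lower adjusted value over 12 ratios, so the adjusted value cannot decide. The unadjusted permutation p cannot either, because the Cyp51 probe sets had already been seen to differ in opposite directions. The spermatid markers given above moved with genotype in the same direction as 1450646_at. On their brightest probe sets 8 of 8 differences were negative; 1 of the 8, Prm2, passed without a block (limma), 6 with the replicate block and 5 with the block for the sets. Of the 7 spermatocyte markers 6 were negative too. The measured Leydig cell (4), Sertoli cell (7), spermatogonium (7), macrophage (5) and fat cell (5) markers were all positive on their brightest probe sets. That is the sign of 1422533_at, but several of these values lay below the median of 0.07 over all probe sets. Examples are Zbtb16 (0.02), Cyp11a1 (0.04) and Wt1 (0.05), while others, such as Kit (0.51), lay above it. Sox9 and Gfra1 each had a dimmer probe set that was negative (-0.20 and -0.33), and the other dimmer ones in these lists were positive. Over all probe sets 64.3% were positive. Epididymis markers (3 positive, 3 negative) and smooth muscle markers (3 positive, 2 negative) were mixed. The part of any of these cells in the Cyp51 and Fdft1 values was not tested.

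Dhcr7 encodes 7-dehydrocholesterol reductase, the last enzyme of one route to cholesterol. Wild-type replicates 1 to 4 read 658, 671, 507 and 383, and mutant replicates 1 to 4 read 640.2, 971, 538 and 542. Mutant replicate 2 was far above the rest, and the low values were those of replicates 3 and 4 in both genotypes. The means were 555 ± 137 and 673 ± 204 (SD, n = 4 each), a log2 difference of 0.26 (95% interval -0.29 to 0.82; limma, adjusted p = 0.999), and 0.08 without mutant replicate 2. The interval was the one that reached highest among the 15.

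**Figure D2:**
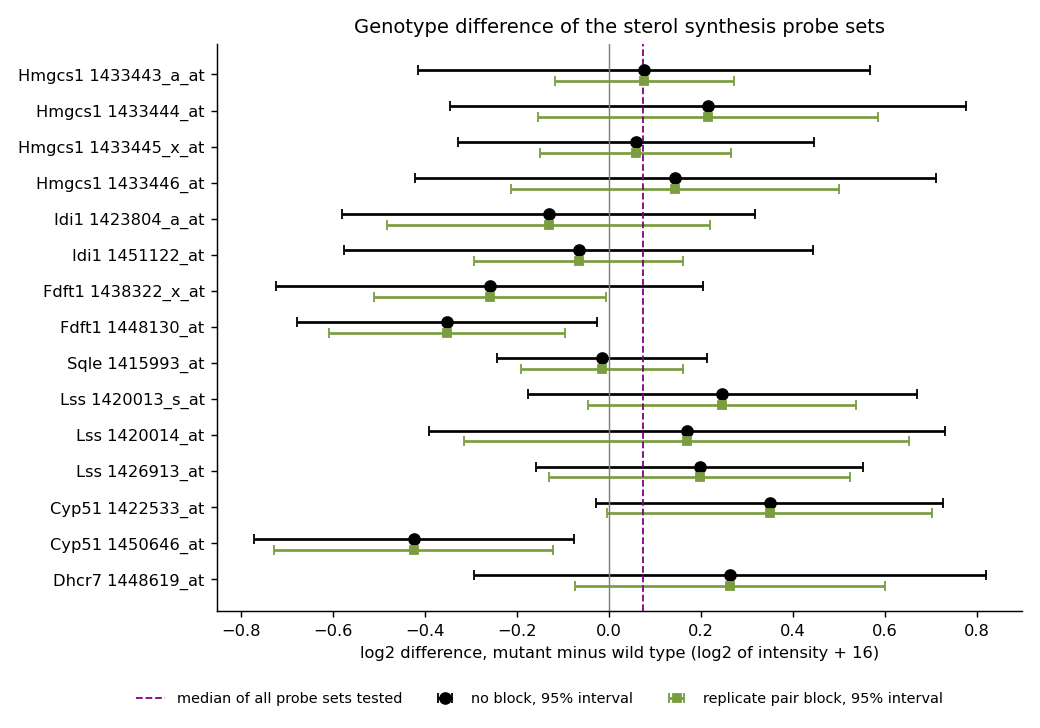
Log2 difference, mutant minus wild type, on the log2(intensity + 16) scale, of the 15 tested probe sets. Black circles with 95% intervals come from the fit without a block and green squares from the fit with a block for the sets of replicates; the dashed line is the median of all probe sets tested, 0.07. The Cyp51 probe sets lie on opposite sides, at -0.42 and 0.35.

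On 11 of the 15 probe sets the means of the replicate sets lay further apart than those of the genotypes. For the brightest probe set this held for 6 of the 7 genes, all but Cyp51. The same count was not made over all probe sets, so it cannot be read as a trait of these genes. Of all probe sets, 35.9% differed between the sets of replicates without overlap and 6.1% between genotypes. On 6 probe sets, all 4 tested ones of Hmgcs1 and both of Idi1, the mean of replicates 3 and 4 was the higher in wild type and in mutants alike. For Hmgcs1 1433443_a_at, replicates 1 and 2 of both genotypes read 2389 to 2547 and replicates 3 and 4 read 3209 to 3897, a log2 difference of 0.57. For Idi1 1451122_at these ranges were 1313 to 1626 and 2027 to 2264, a log2 difference of 0.58. Dhcr7 went the other way, 640.2 to 971 against 383 to 542, a log2 difference of -0.55. Sqle differed by -0.03. In all, 4 of the 15 probe sets were higher and 1 lower in replicates 3 and 4 without overlap, where 19.8% and 16.1% of all probe sets were (35.9% in either direction). The members' shares are near that background, and the sets were known from earlier results of these data, so no test is given. The epididymis and fat cell markers that are high in the same arrays are given above, and their part was not tested.

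**Figure D3:**
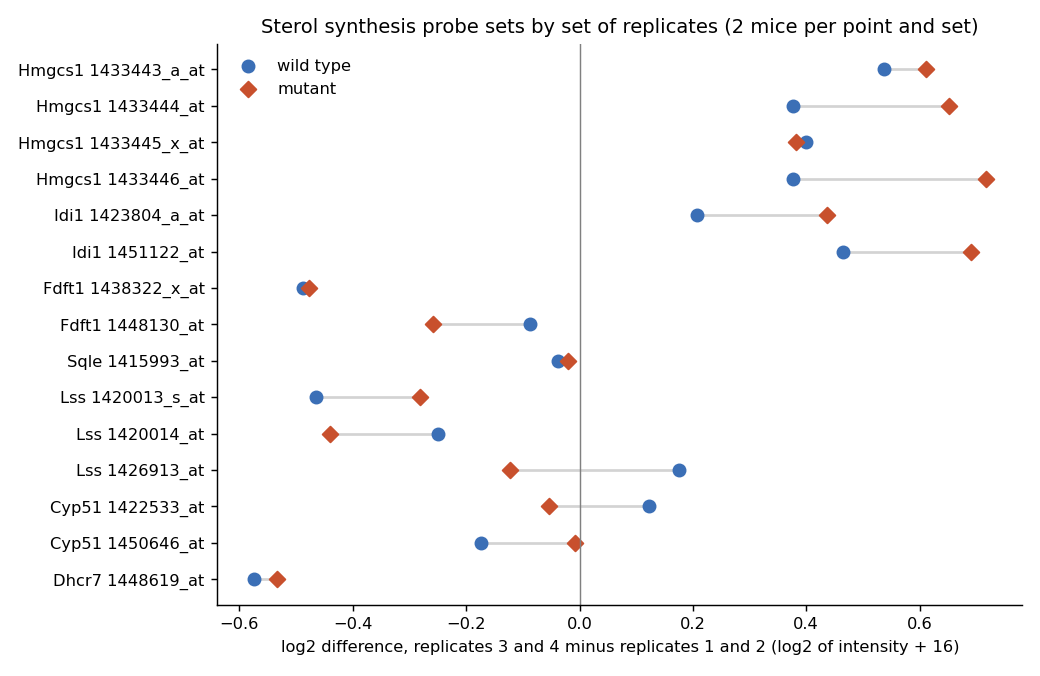
Log2 difference between replicates 3 and 4 and replicates 1 and 2, on the log2(intensity + 16) scale, for each tested probe set, with wild type as circles and mutants as diamonds (2 mice against 2 at each point). Hmgcs1 and Idi1 lie to the right in both genotypes, Dhcr7 and Fdft1 to the left, and Sqle close to 0.

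The test of a genotype difference that depends on the set of replicates made no call. The interaction of genotype with the set of replicates was called for 0 of the 15 probe sets (limma, adjusted p from 0.811 to 0.993, and 0 at an unadjusted p under 0.05) and for 0% of all probe sets, of which 1420 had an unadjusted p under 0.05. A missed threshold does not show equal differences: the interval of the interaction for Cyp51 1450646_at ran from -0.46 to 0.79 log2 units. On 2 of the 15 probe sets the difference changed sign between the sets: it was -0.18 in the first and 0.05 in the second for Idi1 1451122_at, and -0.03 and 0.31 for Hmgcs1 1433446_at.

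Other enzymes of the route were not called either. Among the mevalonate and isoprenoid enzymes outside the 7 genes, 17 tested probe sets of 8 genes gave 0 calls in each of the 3 limma fits, with a median log2 difference of 0.04. At an unadjusted p under 0.05, 0 passed without a block and 1 with either block. Fdps, which makes the farnesyl diphosphate that Fdft1 uses, read 2455 to 3788 in wild type and 2406 to 3510 in mutants, a log2 difference of -0.04. Mvd, whose product Idi1 takes up, read 270 to 468 and 281 to 477 on its brighter probe set, with a log2 difference of 0.13, and 0.52 on the dimmer 1448663_s_at (limma, adjusted p = 0.687). Among the enzymes that trim the sterol ring and side chain, 11 tested probe sets of 8 genes gave 0 calls in these fits, 10 of them positive, with a median of 0.20. At an unadjusted p under 0.05, 3 passed unblocked, 3 with replicate number as the block and 5 with the sets as the block, beside the 7.43%, 14.3% and 14.6% of all probe sets. Msmo1, which removes the methyl groups after Cyp51 has acted, read 1206 to 1334 in wild type and 1256 to 1511 in mutants, a log2 difference of 0.17 (adjusted p = 0.977).

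The sterol sensors and their transcription factors were not called in any of these fits: 13 tested probe sets of 8 genes had a median of 0.21, 11 of them positive. At an unadjusted p under 0.05, 0 passed in the unblocked fit, 3 with the block on replicate number and 4 with that on the sets, against the same shares of all probe sets. Over all probe sets tested, 64.3% of log2 differences were positive.

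Lipe was the one gene of the wider lists to pass. It encodes hormone-sensitive lipase, which frees cholesterol and fatty acids from stored esters and has a form particular to the testis. On 1432180_at wild-type replicates 1 to 4 read 204, 359.7, 213 and 102, and mutant replicates 1 to 4 read 33.1, 55.8, 29.7 and 59.7. All mutants lay below all wild-type mice, and also below the filter level of 67.1. The probe set thus passed the filter through its wild-type values. The log2 difference was -1.88, from 219.7 ± 106 to 44.6 ± 15.3 (SD, n = 4 each), and it fell with the replicate block (limma, adjusted p = 0.0218) and with the block for the sets (0.0238), but missed the threshold without a block (0.0913). The log2 difference was -2.28 among replicates 1 and 2 alone and -1.48 among the rest. The brighter Lipe probe set, 1422820_at, was not called: it read 520 to 1360 in wild type and 489 to 988 in mutants, a log2 difference of -0.43 (adjusted p = 0.232 with the replicate block). Of the 28 tested probe sets of 14 genes of uptake, transport, storage and export, this was the 1 call, 0 being called higher, and the list's median was 0.18. The spermatid markers were lower in the same mice, and their part was not tested.

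**Figure D4:**
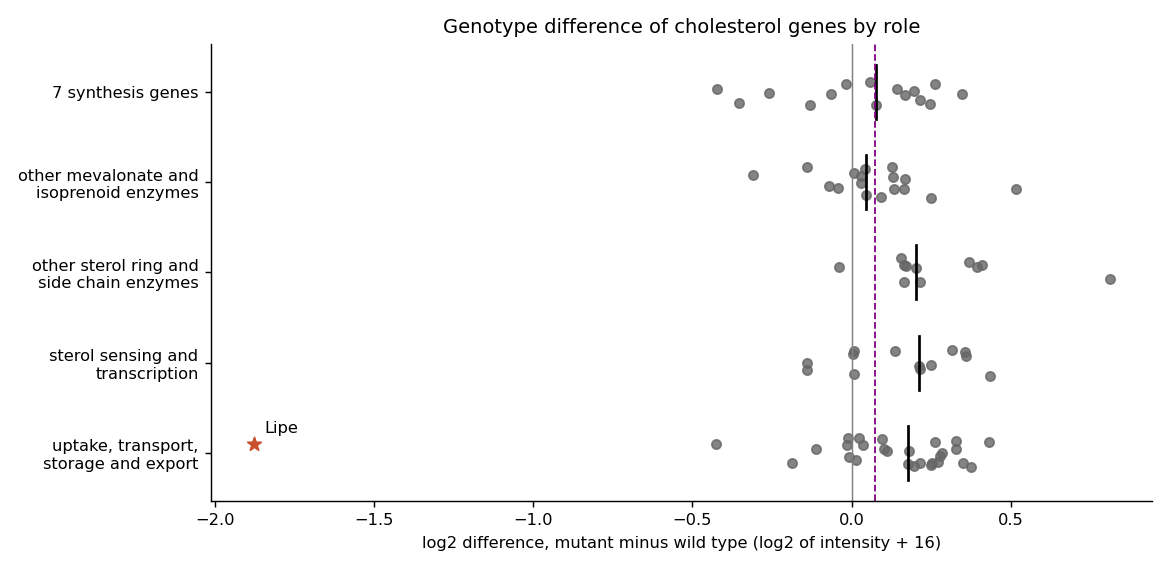
Log2 difference, mutant minus wild type, on the log2(intensity + 16) scale, of each tested probe set by role; black bars are list medians and the dashed line is the median of all probe sets, 0.07. The star marks Lipe 1432180_at at -1.88, called with both blocks and not without one; all other points lie between -0.43 and 0.81 and were not called.

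The arrays on which each gene was high or low were also compared with every other gene, through its brightest probe set. Likeness was Pearson's r over the 8 arrays against 13794 genes, a description with no test, since the 8 arrays share their sets of replicates and their genotypes. The closest named genes were Alcam and Huwe1 for Hmgcs1 (r = 0.996 and 0.994), Jmjd1c and Xrcc4 for Idi1 (0.998 and 0.997), and Ccdc189 and Oscp1 for Fdft1 (0.990 and 0.990). They were Rwdd4a and Pja1 for Sqle (0.924 and 0.920), Slc39a1 and Rpusd2 for Lss (0.971 and 0.955), Mex3d and Scgn for Cyp51 (0.996 and 0.994), and Zpbp2 and Mcrip1 for Dhcr7 (0.981 and 0.972). The genes nearest to Hmgcs1 and Idi1 differed between the sets of replicates without overlap. Those nearest to Cyp51 differed more by genotype: Mex3d by -1.23 log2 units against -0.33 between the sets, and Scgn by -0.87 against -0.10, as Cyp51 1450646_at did (-0.42 against -0.09). None of the 7 genes was among the 2 nearest of another. Hmgcs1 ranked as number 907 for Idi1, and Idi1 as number 1115 for Hmgcs1.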

How the data were processed

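RNA of whole testis from 8 mice, 4 per genotype, was measured on 1 array each. The deposited values are linear intensity values that, per the submitters' processing notes, came from the GCOS software. The software version was not given in the sources used here. Every array has a mean of 500 after trimming 2% at each end. The table has no detection calls, and precision is limited by having 8 arrays. The 64 control probe sets were left out, and 34945 of the other 45037 had 1 gene symbol, 932 several and 9160 none.

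Probe sets with a mean above the 40th percentile, an intensity of 67.1, were tested on log2(value + 16), which understates changes of dim genes. Genotypes were compared with limma 3.58.1 (R 4.3.3; lmFit, eBayes with trend, two-sided, Benjamini-Hochberg over 27022 probe sets, threshold 0.05). Replicate numbers are shared by the genotypes. Same-numbered mice deviated together (r = 0.519 to 0.618), though 2 of 8 mice were closest to their own number. Differently numbered mice of the same set of replicates had r of 0.238 to 0.651. These values therefore cannot tell a pairing by number from the sets of replicates, and the labels state no pairing. The fits were tested on simulated data with known changes.

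All probe sets of the 7 genes are named, with neighbouring enzymes, and list genes called in any of 3 fits. The members and lists were chosen with earlier results of these data known. The ratios of probe sets were tested by exact permutation after their values were seen, and promoters were searched for motifs on both strands. Promoter sequences and updated gene names come from RefSeq (GRCm38.p6). Alternatives were other blocks, normalizations, pseudocounts, filters and array weights, 1 probe set per gene, and leaving out mice. Figures were drawn with matplotlib 3.10.9.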

Additional observations from a re-analysis of the deposited data

Results flagged for a closer look

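Among 38 groups of 4 values (19 probe sets, each genotype), 3 held a mouse set apart from the others of its group by more than Dixon's 95% critical value allows. Chance flags about 1 group in 20. Hmgcs1 1433444_at read 2570.2 in wild-type replicate 4, with the next value at 1646. Hmgcs1 1441536_at read 81.0 in mutant replicate 3, next to 37.1, and Fdft1 1438919_x_at read 23.6 in wild-type replicate 1, next to 8.82. The last 2 lie below the filter on low values and were not tested.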

How the results depend on the processing

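No probe set of the 7 genes was called under any alternative run, and the same holds for the interaction. The smallest adjusted p of a gene's brightest probe set was 0.0895 (limma), for Cyp51 with array weights. The log2 differences of Cyp51, Fdft1, Lss and Dhcr7 kept their sign throughout, but not their size. That of Dhcr7 was 0.026 with array weights, 0.075 without mutant replicate 2 and 0.10 without wild-type replicate 4, against 0.26. That of Fdft1 was -0.46 with array weights and ranged from -0.43 (without mutant replicate 2) to -0.17 (without mutant replicate 4) as single mice were left out, against -0.26. That of Lss was 0.14 with array weights and ranged from 0.16 (without wild-type replicate 3) to 0.38 (without wild-type replicate 2), against 0.25. Those of Hmgcs1, Idi1 and Sqle, all near 0, changed sign as single mice were left out, with ranges of -0.028 to 0.21, -0.21 to 0.052 and -0.047 to 0.0028. That of Hmgcs1 was 0.33 with array weights, and that of Idi1 0.20 with array weights and 0.047 within replicates 3 and 4. That of Sqle was 0.016 with the replicate block and 0.0057 with the block for the sets, each without mutant replicate 1, alternatives chosen after seeing the data. The cause was not tested.

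Over all probe sets 31 were called without a block, 646 with the replicate block, 485 with the block for the sets, 58 with a pseudocount of 64, 668 with array weights and 0 within replicates 1 and 2. Without mutant replicate 1 the replicate block gave 570 and the block for the sets 701. Leaving out single mice gave 0 to 119: 119 without mutant replicate 1, 56 without wild-type replicate 4, 12 without mutant replicate 2 and 0 without any of the others. In the wider lists 1 probe set, Lipe 1432180_at, was called with the replicate block, with the block for the sets, with array weights and in both blocked fits without mutant replicate 1. Leaving out single mice without a block gave 0 to 1, the 1 being without wild-type replicate 4. The replicate block also raised the spermatid markers called lower from 1 to 6 of 8. It changed no call among the 7 genes.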

Other observations

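Insig1 and Srebf1, parts of the sterol-sensing machinery, were singled out after their values were seen. Insig1 retains the SREBP precursor in the endoplasmic reticulum. It read 511, 432, 726 and 653 in wild-type replicates 1 to 4 and 625, 703, 897 and 914 in mutant replicates 1 to 4, higher in each mutant than in the wild-type mouse of the same number. Its log2 difference of 0.44 missed the threshold in each fit (limma, adjusted p = 0.730 unblocked, 0.156 with replicate number as the block and 0.0936 with the block for the sets). Srebf1, which encodes an SREBP, read 672 to 1013 in replicates 1 and 2 and 1419 to 1994 in replicates 3 and 4 of both genotypes. The lipoprotein receptor gene Vldlr read 33.8 to 58.4 and 157 to 217 in these sets on 1434465_x_at. That probe set was picked with the values known, and the other Vldlr probe sets are not given here. Its suffix marks probes that can match other transcripts, and its values in replicates 1 and 2 lie below the filter level of 67.1. Of all probe sets tested, 19.8% were likewise higher in replicates 3 and 4 without overlap. The fat cell markers are high in the same arrays, and their part was not tested.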
